A study of Arabidopsis thaliana with 12 samples.

Results

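AT3G09250 is a nuclear protein-coding gene on chromosome 3 of Arabidopsis thaliana. It is described here through the single array probe, number 3346, that the platform's probe table assigns to it alone. It is 1 of 691 genes that have a probe of their own among the 3439 probes of the array, and no other probe lists it. The gene was chosen by its readout, because its intensity was lower in pete2 than in wild type in an earlier look at these values, so its levels, its ranks and its differences between the genotypes are given as a description, with no test. The RefSeq annotation of assembly TAIR10.1 gives it no symbol beyond the locus name, and no role is given to it here.

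The series compares 6 samples of wild type (WT, ecotype Columbia 0, grown on soil) with 6 of the pete2 mutant of the same ecotype, also grown on soil, each from total RNA hybridised to an array. The pete2 mutant lacks an isoform of plastocyanin. The samples are numbered 1 to 6 in each genotype, and the labels do not say whether a number marks a shared plant, day or array. The labels give no tissue, age, allele, growth light or pooling of plants, nor is it stated whether they came from separate plants. Each p-value therefore covers the spread among these 12 samples alone, and that spread may be technical.

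Plastocyanin is a small copper protein of the thylakoid lumen. It takes electrons from the cytochrome complex of the thylakoid membrane and hands them to photosystem I, and Arabidopsis encodes it in the nuclear genes PETE1 and PETE2. Loss of an isoform leaves the other to carry the electron flow, and nuclear transcript levels in such mutants are measured to see which genes differ when this step of photosynthesis is altered.

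The deposited values are linear intensities, from exactly 0 to a ceiling just under 100. Total intensity per sample lay between 2795 and 3358 in WT and between 2857 and 3180 in pete2. The sample median lay between 0.129 and 0.193 in WT and between 0.0543 and 0.183 in pete2. Probes listed at 0 made up 15.7% to 17.8% of the array in WT and 17.1% to 30.7% in pete2, where samples 5 and 6 held the most. No probe is named for PETE1 or PETE2, and the genotype labels were not checked against the targeted gene. Of 23 marker genes of green tissue, root, flower, vascular and guard cells, senescence and dividing cells, 0 had a probe of their own. Only 1 of them, of green tissue, is listed for any probe. Differences in tissue make-up were thus not measured, and fewer cells of a type cannot be told apart from less RNA per cell.

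AT3G09250 was above 0 in all 12 samples. As deposited, its intensity in WT samples 1 to 6 was 1.83, 1.91, 2.25, 2.35, 2.58 and 2.65. In pete2 samples 1 to 6 it was 0.393, 0.334, 0.342, 0.387, 0.194 and 0.247. Every pete2 sample lay below every WT sample, and the lowest WT value was 4.66 times the highest pete2 value. The mean was 2.26 ± 0.339 in WT (SD, n = 6) and 0.316 ± 0.0794 in pete2 (SD, n = 6), and the ratio of WT to pete2 was 7.30 (geometric means). Within pete2, samples 5 and 6 were the lowest and within WT they were the highest.

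Since sample medians differed, the intensities were also quantile normalized, which gives all samples the same distribution. The normalized intensity of AT3G09250 was 1.85, 1.82, 1.83, 1.89, 2.65 and 2.73 in WT samples 1 to 6. It was 0.325, 0.266, 0.465, 0.52, 0.37 and 0.431 in pete2 samples 1 to 6. The genotypes again did not overlap, but the order within pete2 changed. Samples 3 and 4 were now the highest and samples 1 and 2 the lowest, where samples 5 and 6 had been the lowest as deposited. On this scale WT averaged 2.13 ± 0.436 (SD, n = 6) and pete2 0.396 ± 0.0938 (SD, n = 6), and the log2 difference, pete2 minus WT, was -2.44. The log2 values had an SD of 0.281 in WT and 0.356 in pete2. The gene was chosen for its lower values in pete2, so the size of the difference against these SDs is no test.

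Another scale, the deposited intensity divided by the median of its sample, gave a narrow range in WT. The ratio was 14.2, 13.7, 14.1, 14.8, 14.0 and 13.7 in WT samples 1 to 6, a mean of 14.1 ± 0.387 (SD, n = 6). In pete2 it was 2.15, 1.83, 3.72, 4.44, 3.58 and 4.19, a mean of 3.32 ± 1.08 (SD, n = 6). On this scale the coefficient of variation was 2.75% in WT and 32.5% in pete2, against 15.0% and 25.1% as deposited and 20.5% and 23.7% after quantile normalization. In WT the SD of the log2 ratio was 0.0392, the second lowest among the 1740 probes above 0 in all 12 samples, whose median was 0.486. After quantile normalization the same SD was 0.281, and 346 of the 1740 probes had a lower one. How steady AT3G09250 was within a genotype therefore depended on the scale, while the gap between the genotypes was present on all 3.

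**Figure D1:**
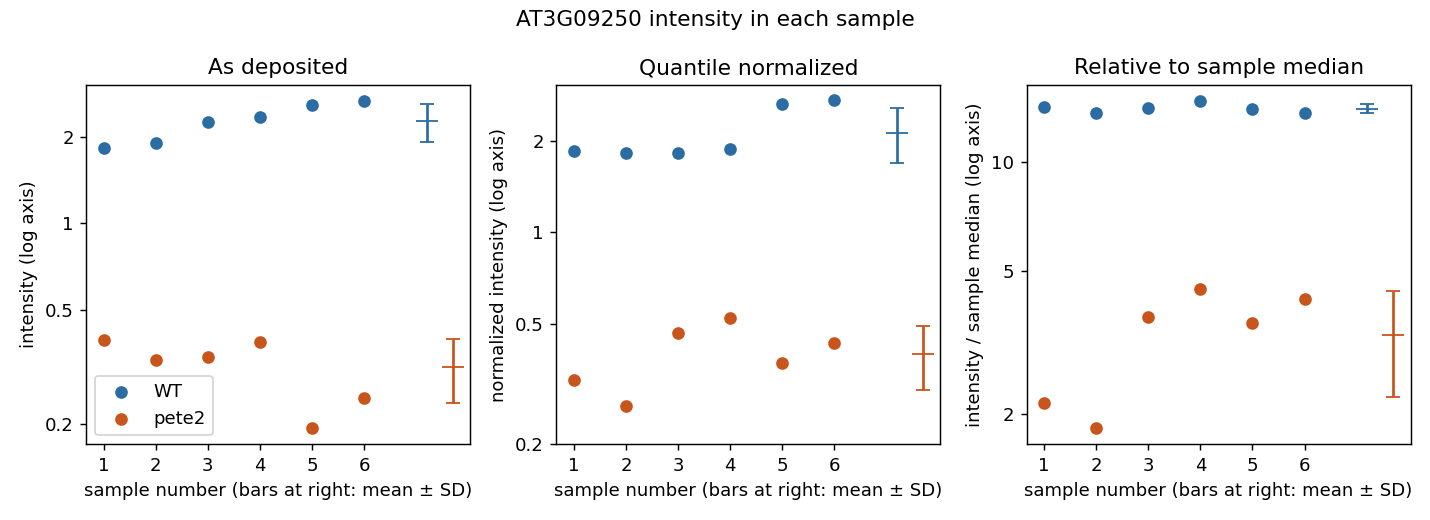
Intensity of AT3G09250 (log axes) against sample number for WT and pete2, as deposited, after quantile normalization and relative to the sample median. Points are samples and bars are mean ± SD (n = 6). No pete2 point reaches a WT point in any panel, and the WT points relative to the sample median lie between 13.7 and 14.8.

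The rank of the probe among all 3439 probes of a sample, counted from the brightest, does not depend on scaling between samples. It orders signals of different probes and is no order of transcript abundance. In WT samples 1 to 6 the probe ranked 180, 183, 182, 177, 132 and 129. In pete2 samples 1 to 6 it ranked 914, 1069, 663, 598, 812 and 712. It was thus within the brightest 183 probes in every WT sample, and from place 598 to place 1069 in pete2. The median rank was 178.5 in WT and 762 in pete2. Even at its lowest pete2 rank, in sample 2, the probe was brighter than 68.9% of the array, so it stayed well away from the probes listed at 0.

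**Figure D2:**
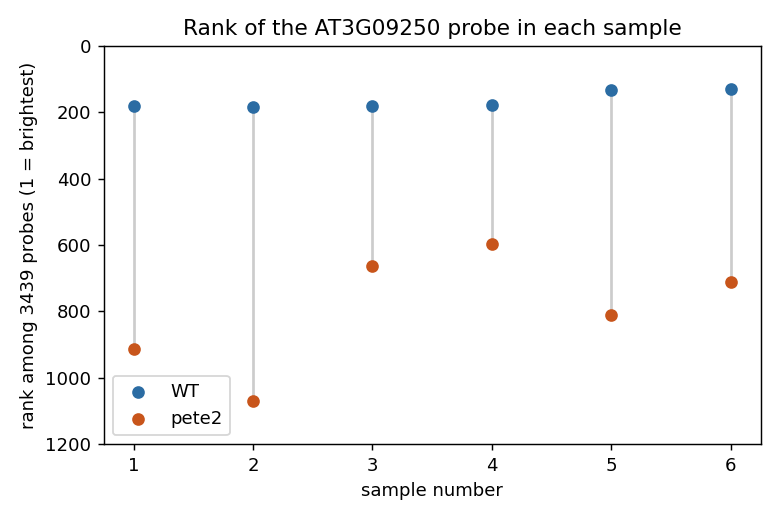
Rank of the AT3G09250 probe among 3439 probes (1 is the brightest, at the top) against sample number, with a grey line joining samples of the same number. WT ranks lie between 129 and 183 and pete2 ranks between 598 and 1069.

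Set side by side by sample number, pete2 was lower than WT at 6 of 6 numbers, which follows from the lack of overlap between the genotypes. The labels do not say that same-numbered samples belong together, so the differences are shown only for how much the contrast varies. As deposited, the log2 differences at numbers 1 to 6 were -2.22, -2.51, -2.72, -2.60, -3.73 and -3.43. The median log2 difference of all 3321 probes that were above 0 in at least 1 sample was 0.16, 0.12, -0.53, -0.58, -1.21 and -1.26 at the same numbers. The larger falls at numbers 5 and 6 thus lay where the median probe was lower in pete2, although the total intensity there was 2906 and 2961 in pete2 against 2795 and 2882 in WT. The part of that shift in the result was not tested.

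After quantile normalization the log2 differences of AT3G09250 at numbers 1 to 6 were -2.51, -2.77, -1.98, -1.86, -2.84 and -2.66, a mean of -2.44 ± 0.42 (SD, n = 6). The smallest fall was now at number 4, where WT was 3.62 times pete2, and the largest at number 5, where it was 7.16 times pete2. Relative to the sample medians the differences were -2.73, -2.91, -1.93, -1.73, -1.97 and -1.71, so that numbers 1 and 2 showed the largest falls. The order of the numbers changed with the scale, and the smallest fall on any of the 3 scales was 1.71 on the log2 scale.

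**Figure D3:**
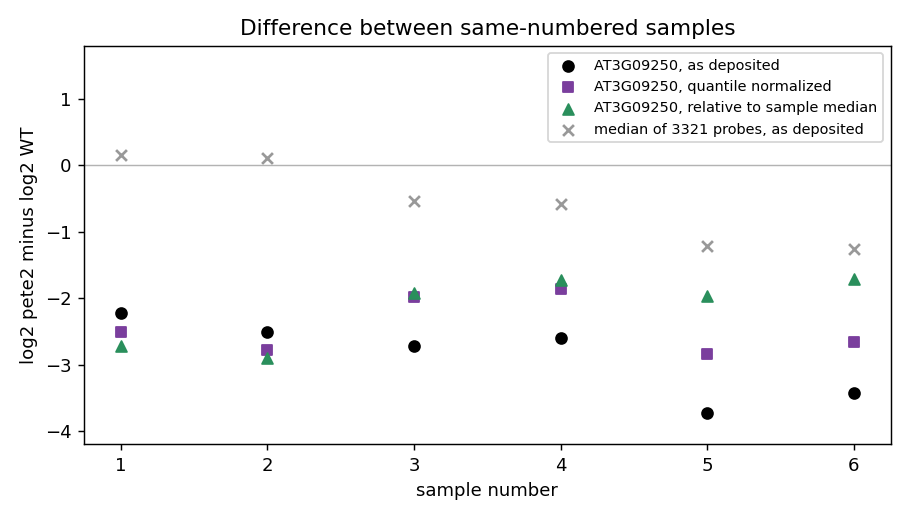
Log2 difference, pete2 minus WT, of AT3G09250 between samples of the same number on 3 scales, with the median of 3321 probes as deposited (crosses). All differences of AT3G09250 lie between -3.73 and -1.71, while the crosses run from 0.16 at number 1 to -1.26 at number 6.

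Samples with consecutive numbers gave alike deposited values of AT3G09250 in WT. As deposited, samples 1 and 2 of WT differed by 0.057 on the log2 scale, samples 3 and 4 by 0.061 and samples 5 and 6 by 0.042. All other combinations of WT samples differed by 0.13 to 0.54. After quantile normalization the WT pairs differed by at most 0.041 and the other combinations by 0.0071 to 0.58, so the WT pairs were then not set apart from all others. In pete2 the same pairs differed by 0.23, 0.18 and 0.35, and the other combinations by 0.023 to 1.02, with a median of 0.56. By this gene, pete2 pairs were not set apart even as deposited. Over the whole array the pete2 samples of a pair had like shares of probes at 0. Probes at 0 made up 17.2% and 17.1% in samples 1 and 2, 21.6% and 21.5% in samples 3 and 4, and 30.7% and 28.6% in samples 5 and 6. Of the 1740 probes above 0 in all samples, 81.9% to 87.2% had a larger difference within the WT pairs than AT3G09250 did, and 49.5% to 64.9% within the pete2 pairs. The median difference of these probes as deposited was 0.212, 0.201 and 0.199 on the log2 scale within the WT pairs. Within the pete2 pairs it was 0.233, 0.295 and 0.463. If consecutive samples are repeats of the same RNA, which the labels do not say, each genotype rests on 3 independent samples. The means of the 3 WT pairs were then 1.84, 1.86 and 2.69 in normalized intensity. Those of the 3 pete2 pairs were 0.296, 0.493 and 0.40. That these means do not overlap follows from the single samples, which did not overlap, and is no separate result.

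The place of AT3G09250 among all probes follows from the values it was chosen for and is a description. Over all 3321 probes tested with limma, 372 (11.2%) had an adjusted p below 0.05, 163 higher and 209 lower in pete2. On the intensities as deposited these counts were 60 higher and 385 lower, with a median log2 difference of -0.63 over all probes, and relative to that median AT3G09250 lay at -2.24 log2 units. With consecutive samples as a random block 168 probes were called (63 higher, 105 lower), and with them averaged 11 (3 higher, 8 lower). Among the 1740 probes above 0 in all samples, tested alone, higher calls outnumbered lower ones, 213 to 174. Of these 1740, 109 (6.26%) had every pete2 sample below every WT sample after normalization, 28 of them among the 335 with a single gene. A level at least 2-fold lower in pete2 at all 6 numbers was seen for 41 of the 1740 (2.36%), 10 of them with a single gene, and AT3G09250 belongs to both sets. By mean log2 difference, 122 of the 3321 probes had a lower value. Unlike the 1740, this wider set includes probes with values at 0, whose differences depend on the floor.

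Ordered by the lowest WT value over the highest pete2 value, AT3G09250 took place 4 of the 1740 probes and place 1 of the 335 with a single gene. Its ratio after normalization was 3.51. Just above it was probe 1994, without a single gene, with a ratio of 4.8 and normalized intensities of 1.23 to 2.10 in WT and 0.0733 to 0.256 in pete2. Just below it was probe 662, also without a single gene, with a ratio of 3.48 and intensities of 2.31 to 3.82 in WT and 0.571 to 0.663 in pete2. The next probe with a single gene was that of AT1G02020, at place 14, with a ratio of 2.23. Its WT intensities ran from 0.636 to 4.70, a far wider spread than the 1.82 to 2.73 of AT3G09250, and its pete2 intensities from 0.0056, the floor of the scale, to 0.285. AT1G02020 thus had the larger mean fall and AT3G09250 the wider gap between the groups.

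**Figure D4:**
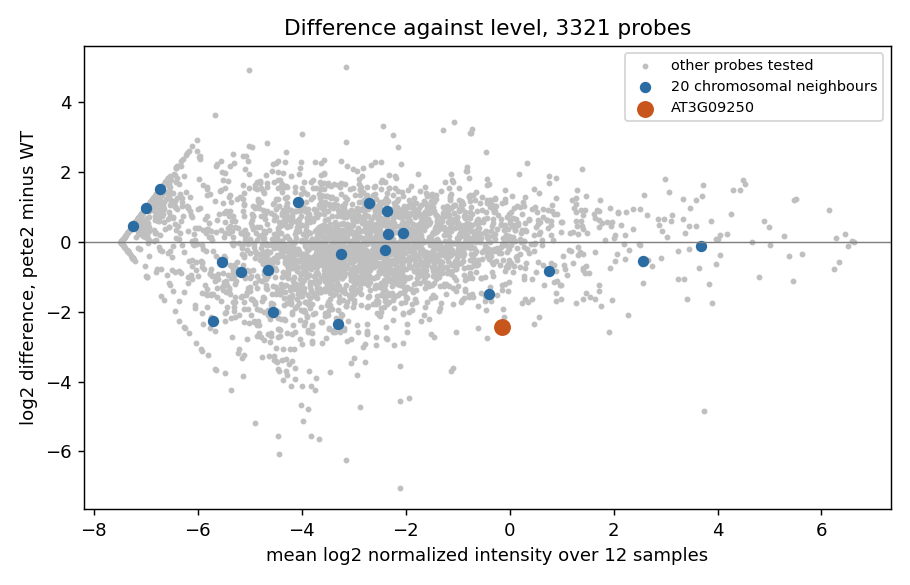
Log2 difference, pete2 minus WT, against mean log2 normalized intensity for the 3321 probes tested, with AT3G09250 (orange) and its 20 nearest measured genes on chromosome 3 (blue). AT3G09250 lies at -2.44, and the blue points, with values at 0 set to the floor, run from -2.34 to 1.5.

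Genes with a like pattern were ranked by Pearson's r of log2 normalized intensity with AT3G09250 over the 12 samples, among the 334 other probes with a single gene and above 0 in all samples. Over the 334 the median r was -0.028, and 10 had an r above 0.9. Samples share a genotype within each group, their scaling and perhaps RNA in pairs, and the difference between the genotypes enters r, which is therefore given as a description of likeness. AT4G15790 came first, with r = 0.97. Its normalized intensity was 0.415, 0.426, 0.651, 0.686, 0.753 and 0.778 in WT samples 1 to 6 and 0.135, 0.113, 0.23, 0.241, 0.184 and 0.237 in pete2 samples 1 to 6. Like AT3G09250 it did not overlap between the genotypes, was lowest in pete2 samples 1 and 2 and was highest in WT samples 5 and 6, but WT samples 3 and 4 lay near samples 5 and 6, where those of AT3G09250 lay near samples 1 and 2.

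AT5G65220 followed with r = 0.95, with WT samples at a normalized intensity of 2.51 ± 1.13 and pete2 samples at 0.715 ± 0.124 (SD, n = 6 per genotype, as for the genes that follow). AT5G15280 had r = 0.94, with WT samples at 0.769 ± 0.0807 and pete2 samples at 0.227 ± 0.0955. AT4G26770 had r = 0.93, with WT at 0.213 ± 0.0297 and pete2 at 0.0807 ± 0.0202. CML30 (AT2G15680), a calmodulin-like protein, a family that binds calcium, also had r = 0.93, with WT at 6.70 ± 2.27 and pete2 at 1.83 ± 0.299. All 5 genes were lower in every pete2 sample than in any WT sample, with log2 differences between -1.89 and -1.43, smaller falls than the -2.44 of AT3G09250. Ranking by r with AT3G09250 over both genotypes favours such genes, so their lack of overlap is no separate result. Of the 335 probes with a single gene and above 0 in all samples, 28 had no overlap in this direction. Within the genotypes the likeness was uneven. In pete2 alone r was -0.69 for CML30, and in WT alone it was -0.61 for AT4G26770. Ranked by Spearman's correlation instead, 1 of the 5 genes stayed among the first 5.

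A second ranking used each sample's deviation from the mean of its genotype, which leaves the difference between the genotypes out. Over the same 334 probes the median r was 0.033. The highest values were 0.93 for AT1G69910, 0.90 for AT1G07850, 0.88 for both AT3G14890 and AT3G57120 and 0.85 for AT4G15790, the single gene in both rankings. AT1G69910 was not lower in pete2, with WT samples at 0.268 ± 0.105 and pete2 samples at 0.539 ± 0.183 (SD, n = 6 per genotype, as for the next 3 genes), while within each genotype it shared the high values of WT samples 5 and 6 and the low values of pete2 samples 1 and 2. AT1G07850 had 0.104 ± 0.0611 for WT and 0.108 ± 0.069 for pete2, and AT3G14890 had 0.36 ± 0.138 and 0.267 ± 0.0803. AT3G57120 had 0.662 ± 0.187 for WT and 0.379 ± 0.0692 for pete2. This ranking changed with the scaling, since with median centring 0 of these 5 genes and with cyclic loess 1 of them was among the first 5.

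**Figure D5:**
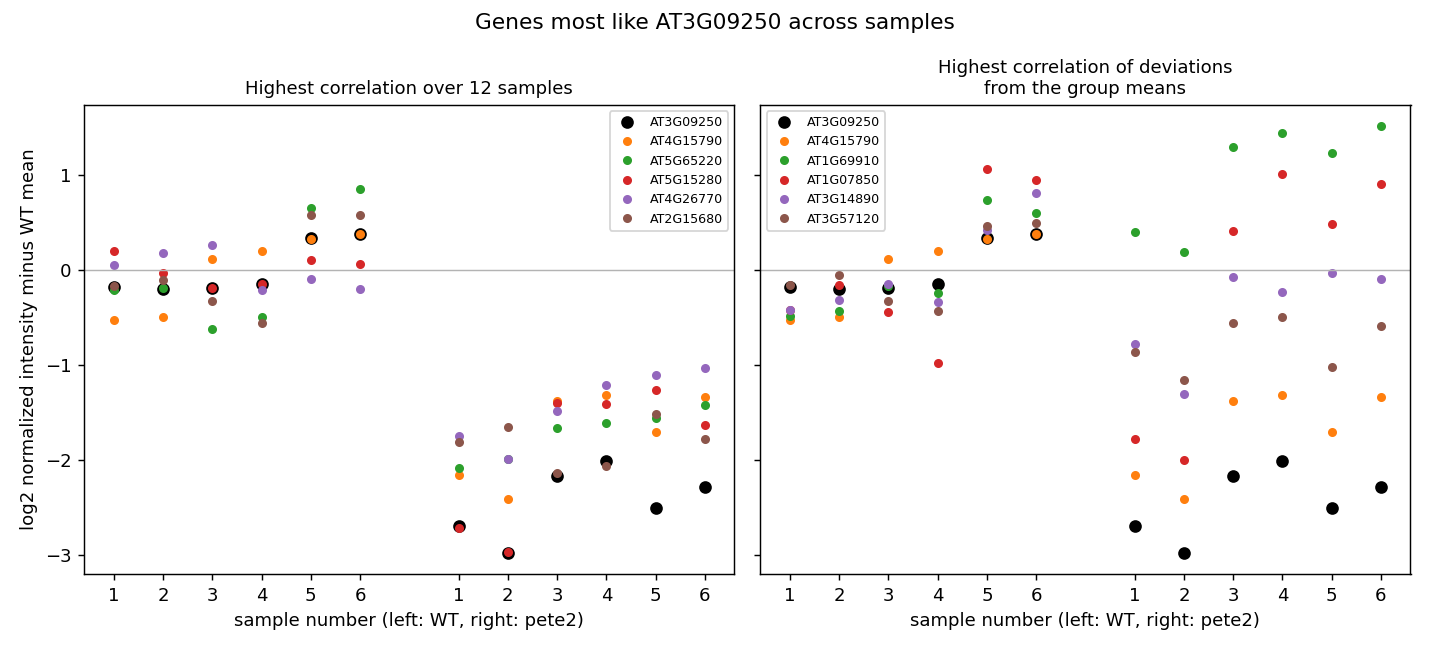
Log2 normalized intensity minus the WT mean, by sample number in WT (left in each panel) and pete2 (right), for AT3G09250 (black) and the 5 genes with the highest correlation over 12 samples (left panel) or of deviations from the genotype means (right panel). In the left panel all genes lie lower in pete2. In the right panel AT1G69910 lies higher in pete2, and AT1G07850 has a mean of 0.104 in WT and 0.108 in pete2. AT2G15680 is CML30.

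Genes beside AT3G09250 on the chromosome played no part in choosing it, so their contrast between the genotypes was tested. None of the 20 protein-coding genes directly around it, 10 on each side, is listed for any probe. The nearest 10 genes on each side with a probe of their own lie 18 to 471 genes before it and 24 to 430 genes after it, so they are neighbours on the array's map and not adjacent genes. Of these 20, 0 were called by limma (adjusted p from 0.0987 to 0.86), against 11.2% of all probes. At an unadjusted p below 0.05 there were 6, 3 with a higher and 3 with a lower value in pete2, against 26% of all probes. Of these 6, 2 were among the 11 neighbours with no value at 0. With values at 0 set to the floor, their median log2 difference was -0.30, 12 of 20 were negative, and the median over all probes was -0.0093. Of the 20, 9 had at least 1 value at 0.

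The neighbours closest to a call lay on both sides of 0. AT3G12000 had WT samples at a normalized intensity of 0.107 ± 0.0271 and pete2 samples at 0.267 ± 0.173 (SD, n = 6 per genotype), and its log2 difference was 1.12 ± 0.406 (SE; limma adjusted p = 0.0987). AT3G09050, 22 genes before AT3G09250, differed by 0.89 ± 0.393 on the log2 scale (SE; adjusted p = 0.176). AT3G11960, AT3G11150 and AT3G13150 had log2 differences of -2.34, -2.28 and -2.01 (adjusted p = 0.139, 0.122 and 0.171), each with pete2 samples at 0, so that their size depends on the floor. Without pete2 sample 2 both AT3G12000 and AT3G11150 passed (adjusted p = 0.0485 and 0.0391), and without WT sample 4 AT3G11150 did (0.0446). AT3G09850, AT3G08760 and DRT100 (AT3G12610), named for DNA damage repair and toleration, were listed at 0 in all 6 WT samples, so no fold is given for them. They enter the median and the counts above through the floor, AT3G09850 as 1 of the 3 higher.

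The nearest measured neighbours had values that overlapped between the genotypes. AT3G09080, 18 genes before AT3G09250, had WT samples at 7.64 ± 3.24 and pete2 samples at 5.58 ± 2.85 (SD, n = 6 per genotype; limma adjusted p = 0.393). AT3G09490, 24 genes after it, had WT at 0.141 ± 0.0907 and pete2 at 0.111 ± 0.0755 (SD, n = 6 per genotype; limma adjusted p = 0.688). ATAB2 (AT3G08010), a factor known in the translation of photosystem proteins in the chloroplast, had pete2 minus WT at -0.80 ± 0.975 (log2, SE; adjusted p = 0.622), with 2 pete2 samples at 0. The other 9, AT3G04650, AT3G06200, AT3G06570, AT3G06870, AT3G07790, AT3G08000, AT3G12930, AT3G13120 and AT3G13180, had log2 differences between -1.48 and 1.13. In 0 of the 20 did all samples of a genotype lie on one side of the other. Among the 1740 probes above 0 in all samples, 109 (6.26%) had every pete2 sample below every WT sample, and 105 had every one above. Of the 20 neighbours, 9 had a value at 0, and AT3G09250 was chosen for its lower values, so they are not compared in this.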

How the data were processed

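The authors deposited 1 linear intensity per probe for each of 12 samples (3439 probes). The labels say nothing of how these deposited intensities were scanned, background corrected or scaled. The number of arrays limits the precision. Genes were assigned by the platform's table, which names 1 gene for 692 probes, more than 1 for 870 and leaves out 1877. The order of genes on chromosome 3 was taken from the RefSeq annotation of assembly TAIR10.1. No coordinates are printed, and sequences were not used here.

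Intensities were quantile normalized. Values at or below the 1st percentile of positive values (0.0056), and values deposited as 0, were raised to this floor before taking log2. The 118 probes at 0 in every sample were left out. The genotype contrast used limma 3.58.1 under R 4.3.3 (lmFit, eBayes with trend, Benjamini-Hochberg over 3321 probes, threshold 0.05), checked on simulated data. The simulated samples were drawn independently of each other, so the check does not cover a likeness of consecutive samples. Same-numbered samples were not taken as paired.

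AT3G09250, the lists, tests and alternatives were chosen with earlier results of these data known. Named genes are AT3G09250, the 5 single-gene probes most correlated with it by each of 2 measures, its 20 measured neighbours and the single-gene probe next to it in the order of separation; probes 1994 and 662 were named after their values were seen. A planned list of 3 nuclear transport factor genes (NTF2A, NTF2B and NTL) had 0 members with a probe of their own, and the 7 marker lists (23 genes) had 0.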

Additional observations from a re-analysis of the deposited data

Results flagged for a closer look

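In 59 groups of 6 samples (31 genes), 2 had a sample far from the rest by Dixon's gap, and chance gives about 1 in 20 groups. Neither was a group of AT3G09250. For AT3G11150, pete2 sample 2 had a normalized intensity of 0.0592 against 0.00766 for the next, a gap of 0.867 of the range on the log2 scale, above the 95% critical value, and 4 of the group were at 0. For AT3G08760, pete2 sample 4 had 0.0363 and the other 5 were listed at 0, so its gap of 1 follows from any value above the floor.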

How the results depend on the processing

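The log2 difference of AT3G09250, pete2 minus WT, was negative under every setting run. It was -2.87 on the intensities as deposited, -2.16 with median centring, -2.47 with cyclic loess, -2.17 with an offset of 0.1, -2.36 without pete2 samples 5 and 6, -2.28 without samples 5 and 6 of both genotypes, and -2.50 to -2.36 leaving out each sample in turn. The count of probes called was 372, against 168 with consecutive pairs as a random block, 11 with the pairs averaged and 287 to 423 leaving out each sample. With the sample number as a replicate block it was 324. Same-numbered samples deviated together with correlations of 0.020 to 0.283 over probes, positive at all 6 numbers but below 0.1 at numbers 1 and 2, so the numbers were not taken as pairs, and whether they mark a shared batch was not settled.

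Of the 20 neighbours, 0 were called in the main setting and 0 to 2 leaving out each sample: AT3G11150 without WT sample 4 (adjusted p = 0.0446), and AT3G11150 and AT3G12000 without pete2 sample 2 (0.0391 and 0.0485). There was 1 call among probes above 0 in all samples, AT3G12000 (0.0486, where fewer probes were tested), and 1 without samples 5 and 6 of both genotypes, AT3G06200 (0.015). Over the alternatives the adjusted p ran from 0.0391 to 0.516 for AT3G11150, from 0.0485 to 0.431 for AT3G12000 and from 0.015 to 0.567 for AT3G06200. Signs turned for uncalled neighbours. As deposited, AT3G06570 had 0.18, AT3G06870 -0.28 and AT3G12930 -0.32. With median centring, AT3G06570 had 0.88 and AT3G09080 0.29, and with cyclic loess AT3G06570 had 0.035. With the floor at the 10th percentile, AT3G08000 had 0.28 and AT3G13120 0.096. Without pete2 samples 5 and 6, AT3G06870 had -0.21, AT3G08010 0.42 and AT3G13120 0.21. Without samples 5 and 6 of both genotypes, AT3G04650 had 0.052, AT3G06570 0.18, AT3G06870 -0.41, AT3G08010 1.37, AT3G09490 0.36 and AT3G13120 0.63. Leaving out each sample, AT3G06570 ran from -0.29 to 0.12. The causes were not tested.

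Of the 5 genes most correlated over 12 samples, 3 stayed among the first 5 with median centring and 1 with Spearman's correlation. Of the 5 by deviations, 2 stayed on the intensities as deposited, 0 with median centring, 1 with cyclic loess and 3 with Spearman's correlation. The search for related proteins was not run, and the nuclear transport factor genes gave no value.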

Other observations

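The genes with the most negative correlation with AT3G09250 over the 12 samples were picked out after their values were seen. AT4G13550 had r = -0.97, SIS (AT5G02020) -0.96, AT3G27550 -0.95, AT4G32060 -0.94 and AT4G19900 -0.91. SIS had WT samples at a normalized intensity of 0.128 ± 0.0157 and pete2 samples at 0.368 ± 0.0355 (SD, n = 6 per genotype). Within the genotypes the likeness was weak for AT4G13550 and SIS, with r of -0.19 and -0.20 for the deviations. It was -0.33 for AT4G19900, -0.64 for AT4G32060 and -0.83 for AT3G27550.

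Of the 10 tested probes nearest to AT3G09250 in the order of the deposited table, 5 on each side, 8 had a positive log2 difference and 1 was called, probe 3340, which was higher in pete2 (2.58, adjusted p = 0.0388), against 11.2% called over all probes. The lowest log2 difference of the 10 was -2.10, for AT1G50020 (adjusted p = 0.217). The table's order is not stated to be the order on the array. The probe of AT4G15790 is number 3337, close to 3346. Among probes with a single gene it was first by r over the 12 samples and at place 5 by deviations. Of probes of any kind, 6 had a higher r over the 12 samples. The nearness in number was seen afterwards, and its bearing on the likeness was not tested.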
